A study of Mus musculus with 8 samples.

Results

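The receptors and bridging ligands through which the retinal pigment epithelium (RPE) binds and engulfs photoreceptor outer segments were examined in eyecups of Bbs8-/- mice at postnatal day 11 (P11). The 10 genes were chosen by their role, with earlier results of these data known: the receptor kinases Mertk, Axl and Tyro3, their ligands Gas6 and Pros1, the integrin subunits Itgav and Itgb5 with the ligand Mfge8 and the kinase Ptk2, and the scavenger receptor Cd36. Each matched 1 of the 31053 gene identifiers in the files.

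The RPE is a pigmented monolayer whose apical processes surround the outer segments. Shed outer segment tips expose phosphatidylserine, a membrane lipid, which secreted bridging proteins recognise. Mfge8 links it to the integrin αvβ5, which holds the particle at the RPE surface and signals through focal adhesion kinase, the product of Ptk2. Gas6 and protein S, the product of Pros1, link it to Mertk, which triggers engulfment. In rats and people, loss of Mertk function leaves outer segment debris uncleared and the photoreceptors degenerate.

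The animals were C57/Bl6 mice, and 4 wild-type littermates (Bbs8+/+) were compared with 4 mice in which Bbs8, a subunit gene of the ciliary BBSome, was knocked out. The knockout was present in all tissues, so the photoreceptors lacked Bbs8 as well. RNA came from whole eyecups after cornea, lens, retina and optic nerve had been discarded, and the level of each gene was read by QuantSeq 3′ mRNA sequencing, in which each read is a tag from the 3′ end of a polyadenylated transcript. Levels are therefore given as CPM, the count of a gene scaled to the library's total, without division by transcript length, and a level of one gene is not set against that of another except as a share of tags.

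Total gene counts were 1636725 to 2884983 per library, so 3 counts, taken here as the smallest level that the depth could show, amounted to 1.04 to 1.83 CPM. Ttc8, the symbol of Bbs8 in the annotation, was 14.7 to 21.7 CPM in Bbs8+/+ and 2.30 to 9.72 CPM in Bbs8-/- (edgeR FDR 2.75e-06). The RPE markers Rpe65, Rlbp1 and Ttr were strongly expressed in all 8 libraries, while Best1, another RPE gene, had means of only 0.741 and 2.18 CPM in Bbs8+/+ and Bbs8-/-. The collagen gene Col1a1 of fibroblasts reached means of 11717 and 8752 CPM, as choroid and sclera stay in such a sample. Xist, which females express, was 641 to 747 CPM in Bbs8+/+ and 571 to 626 CPM in Bbs8-/-. The summed level of 4 Y-linked genes, which males express, was 59.1 to 65.0 CPM and 108 to 119.7 CPM. Both were thus present in all 8 libraries, which goes against the study's statement that a replicate was a single animal, and the p-values may measure the spread between mixtures of animals. Neither level overlapped between the genotypes, with Xist lower and the Y-linked sum higher in Bbs8-/-. None of the 10 uptake genes lies on a sex chromosome, and the part of sex in their levels was not tested.

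The comparison asks how the uptake receptors and their bridges were expressed without Bbs8 at an age when outer segments are still forming. Of the 10 genes, Mfge8 was up-regulated and Pros1 was down-regulated in Bbs8-/-, and the other 8 did not pass the false discovery rate (FDR) of 0.05. Over all 13813 genes tested, 2.24% passed, 1.10% upward and 1.14% downward. All 10 passed the filter on low counts. The receptors and the integrin genes had point estimates above 0, both ligands of the Mertk family had estimates below 0, and the median log2 fold change of the 10 genes was 0.11 beside -0.0041 for all tested genes. Mfge8 and Itgav were higher in every Bbs8-/- library than in any Bbs8+/+ library, and Pros1 was lower. These 3 of 10 genes compare with 7.38% of all tested genes whose groups were apart, 3.62% with the Bbs8-/- libraries higher and 3.76% with them lower. An unadjusted p under 0.05 was found for 5 of the 10, with Mfge8, Mertk and Itgav higher and Pros1 and Gas6 lower, and for 13.0% of all tested genes, 6.38% higher and 6.60% lower.

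**Figure D1:**
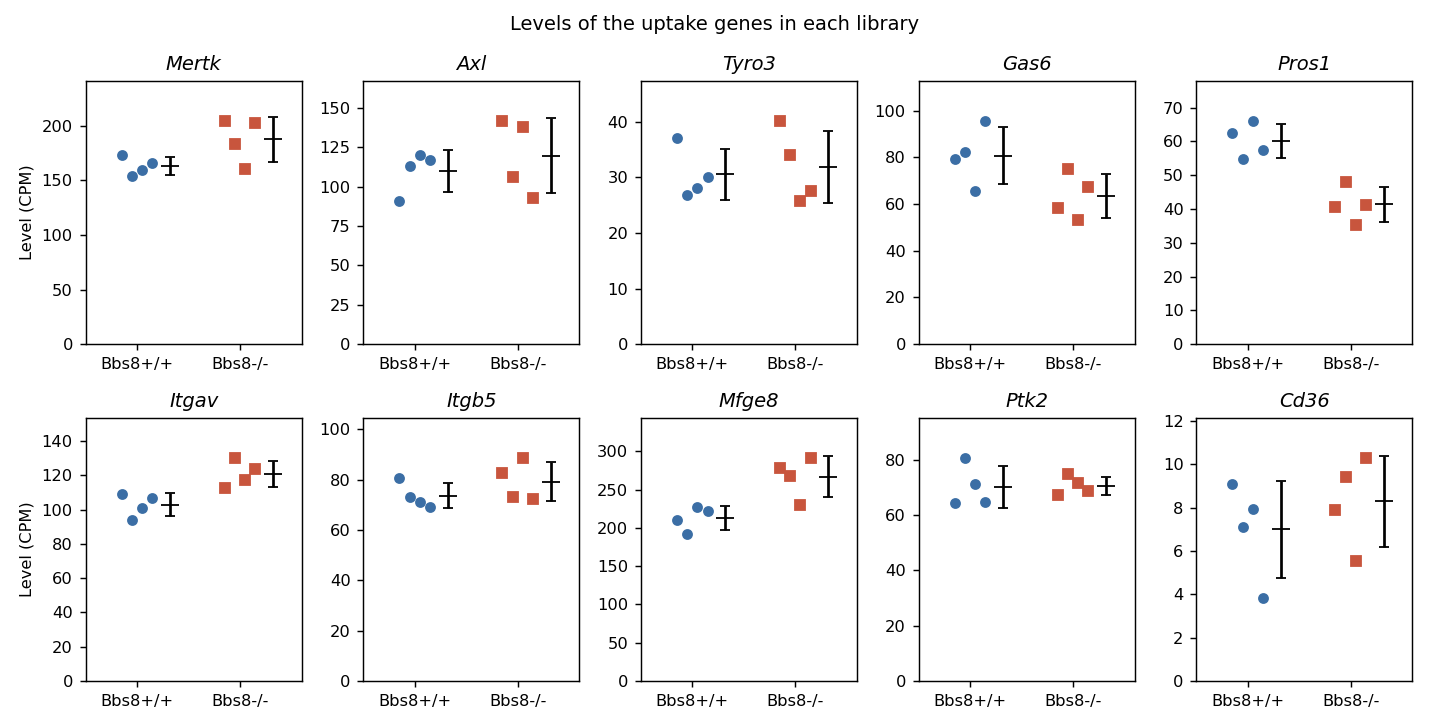
Level in CPM (y axis, from 0, a scale of its own for each gene) of the 10 uptake genes in the 4 Bbs8+/+ (blue circles) and 4 Bbs8-/- libraries (red squares), replicates 1 to 4 from left to right, with the mean and SD beside them. Pros1 lies below all Bbs8+/+ libraries in every Bbs8-/- library, Mfge8 and Itgav lie above them, and the points of the other 7 genes overlap.

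The bridging ligands of the Mertk family were the lowest of the 10 in fold change. Pros1 (ENSMUSG00000022912, chromosome 16, 62854307 to 62929346 in mm10, plus strand) encodes protein S, a vitamin K-dependent plasma protein that is also an anticoagulant cofactor. Its level was 62.6, 54.7, 66.0 and 57.3 CPM in Bbs8+/+ replicates 1 to 4 and 40.7, 48.1, 35.4 and 41.2 CPM in Bbs8-/- replicates 1 to 4. The lowest Bbs8+/+ library was above the highest Bbs8-/- library. The Bbs8+/+ mean of 60.2 ± 5.06 CPM compared with 41.3 ± 5.23 CPM in the Bbs8-/- libraries (SD, n = 4 each). On the log2 scale Pros1 fell by 0.54 (SE 0.143, 95% interval -0.82 to -0.26, FDR 0.0156 in edgeR). The call depended on single libraries: the FDR was 0.05005 without Bbs8+/+ replicate 1, 0.0613 without Bbs8+/+ replicate 3 and 0.114 without Bbs8-/- replicate 3, where the log2 fold change was -0.52, -0.49 and -0.47, respectively.

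Gas6 (ENSMUSG00000031451, chromosome 8, 13465374 to 13494490, minus strand) encodes the other vitamin K-dependent ligand, which binds Axl, Tyro3 and Mertk. Its level was 79.4, 82.3, 65.5 and 95.5 CPM in Bbs8+/+ and 58.3, 74.8, 53.3 and 67.3 CPM in Bbs8-/-. Bbs8+/+ replicate 3 was lower than Bbs8-/- replicates 2 and 4, so the genotypes overlapped. The log2 fold change was -0.35 with a 95% interval of -0.60 to -0.11, and it did not pass the threshold (edgeR FDR 0.128, unadjusted p = 0.00488 from the fit across all genes). Without Bbs8+/+ replicate 3 it passed (log2 fold change -0.44, edgeR FDR 0.0400). Exons of Gas6 share 34 bases with the antisense gene Tmem255b, 2957 bases away from the 3′ end of Gas6. Tmem255b itself had means of 5.46 and 3.43 CPM.

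Ratios of tags within a library do not depend on the scaling of libraries. There were 0.820, 0.892, 0.824 and 0.920 Gas6 and Pros1 tags per Mertk tag in Bbs8+/+ and 0.485, 0.670, 0.553 and 0.536 in Bbs8-/-. The lowest Bbs8+/+ ratio was above the highest Bbs8-/- ratio. This ratio was not among those planned. It sets genes with estimates below 0 over a gene with an estimate above 0, so it restates those differences. The ratio of Gas6 to Pros1 was 0.993 to 1.66 in Bbs8+/+ and 1.43 to 1.64 in Bbs8-/-, and the genotypes overlapped. The ratios were not tested.

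Mfge8 (ENSMUSG00000030605, chromosome 7, 79133768 to 79149060, minus strand) encodes the secreted bridge between phosphatidylserine and the integrins αvβ3 and αvβ5. Its level was 209.7, 191, 227 and 222 CPM in Bbs8+/+ and 278, 267.2, 229 and 291 CPM in Bbs8-/-. All Bbs8-/- libraries were higher than all Bbs8+/+ libraries, although Bbs8-/- replicate 3 exceeded Bbs8+/+ replicate 3 by less than the spread of either group. The Bbs8+/+ mean of 213 ± 16.03 CPM compared with 266.5 ± 26.8 CPM in the Bbs8-/- libraries (SD, n = 4 each). On the log2 scale Mfge8 rose by 0.32 (SE 0.0753, 95% interval 0.18 to 0.47, FDR 0.00322 in edgeR). Without Bbs8-/- replicate 4 the log2 fold change was 0.28 and just missed the threshold (edgeR FDR 0.05013).

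Pros1 and Mfge8, the 2 genes that passed the threshold, and Gas6 are the 3 secreted bridges among the uptake genes. The 250 bases before their starts annotated by RefSeq are shown. They are RefSeq sequence of GRCm38.p6, read in the direction of transcription, from chr16:62854057-62854306 (plus strand) for Pros1, chr8:13494536-13494785 (minus strand) for Gas6 and chr7:79149061-79149310 (minus strand) for Mfge8. The RefSeq start of Gas6 lies upstream of the GENCODE gene end given above, while those of Pros1 and Mfge8 coincide with it. Capitals mark matches to GGGCGG, the GC box bound by Sp family factors, on either strand.
Pros1: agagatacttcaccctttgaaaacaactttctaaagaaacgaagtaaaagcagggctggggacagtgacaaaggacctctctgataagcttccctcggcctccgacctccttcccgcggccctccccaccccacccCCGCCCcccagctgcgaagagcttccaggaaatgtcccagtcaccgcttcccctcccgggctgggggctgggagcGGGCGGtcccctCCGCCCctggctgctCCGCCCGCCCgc
Gas6: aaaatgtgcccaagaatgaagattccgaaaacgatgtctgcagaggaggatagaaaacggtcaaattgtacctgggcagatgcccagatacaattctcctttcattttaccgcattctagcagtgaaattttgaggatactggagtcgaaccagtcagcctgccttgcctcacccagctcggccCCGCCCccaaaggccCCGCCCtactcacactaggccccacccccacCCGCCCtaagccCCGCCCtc
Mfge8: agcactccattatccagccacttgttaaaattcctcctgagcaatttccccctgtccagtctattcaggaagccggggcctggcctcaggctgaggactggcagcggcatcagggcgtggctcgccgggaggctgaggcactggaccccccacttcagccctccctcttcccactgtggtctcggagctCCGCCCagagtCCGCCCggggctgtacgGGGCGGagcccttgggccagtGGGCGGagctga
The GC box occurred 5 times before Pros1, 4 times before Gas6 and 4 times before Mfge8, with overlapping matches counted separately. It was present in 8 of the 9 uptake genes with a promoter entry and in 32.7% of 32851 promoter windows of the same length. The motif is GC-rich, and these windows were too: GC content was 54.8% to 73.2% in 8 of the 9 and 43.2% in Cd36, beside a median of 52.4% over all windows. Another 5 motifs were searched on both strands and had no match in the windows shown. These were the E-box CACGTG, held by 6.02% of all windows, and the core CATGTG of the M-box known from pigment cell genes, held by 12.3%. The CCAAT box was held by 33.8% of all windows and, among the uptake genes, by Cd36. The TATA box motif TATAAA was held by 12.4%, and the TEAD motif GGAATG was held by 12.6% and by Axl. Pros1 and Gas6, with fold changes below 0, and Mfge8, with one above 0, did not differ in which of the 6 motifs they held.

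The receptor kinases were examined next. Mertk (ENSMUSG00000014361, chromosome 2, 128698956 to 128802894, plus strand), the receptor that triggers engulfment in the RPE, was 173, 154, 159.5 and 166 CPM in Bbs8+/+ and 204, 184, 160.3 and 203 CPM in Bbs8-/-. In Bbs8-/- replicates 1, 2 and 4 it was above all Bbs8+/+ libraries, and replicate 3 fell within their range. The log2 fold change was 0.20 with a 95% interval of 0.03 to 0.37, and it did not pass the threshold (edgeR FDR 0.258). With 1 library left out it ranged from 0.16 without Bbs8-/- replicate 4 (edgeR FDR 0.536) to 0.27 without Bbs8-/- replicate 3 (edgeR FDR 0.118).

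Axl, a family member that binds Gas6 and is widespread in macrophages, vessels and stroma, was 90.6, 113, 119.8 and 117 CPM in Bbs8+/+ and 142, 106, 138 and 93.1 CPM in Bbs8-/-. Bbs8-/- replicates 1 and 3 were above the Bbs8+/+ range, and replicates 2 and 4 were within it. Its log2 fold change was 0.11 with a 95% interval of -0.09 to 0.32 (edgeR FDR 0.719). Tyro3, the family member known from the nervous system and described in mice as a modifier of the Mertk phenotype, was 26.8 to 37.1 CPM in Bbs8+/+ and 25.7 to 40.1 CPM in Bbs8-/-. Its log2 fold change was 0.05 with a 95% interval of -0.31 to 0.41 (edgeR FDR 0.951). It rested on 56 to 86 counts per library, and its sign changed without Bbs8+/+ replicate 2 or Bbs8-/- replicate 1.

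Mertk took 53.7% ± 2.596 (SD, 4 libraries) of the tags of the 3 receptors in Bbs8+/+ and 55.4% ± 5.64 in Bbs8-/-. The share of Axl was 36.3% ± 4.14 and 35.2% ± 5.86, and that of Tyro3 10.05% ± 1.54 and 9.34% ± 1.30. Each share overlapped between the genotypes. The summed level of the 3 receptors was 301, 293, 307 and 313 CPM in Bbs8+/+ and 386, 324, 324 and 323 CPM in Bbs8-/-. Bbs8-/- replicate 1 stood far above the other Bbs8-/- libraries, which were themselves above every Bbs8+/+ library by a narrow margin.

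**Figure D2:**
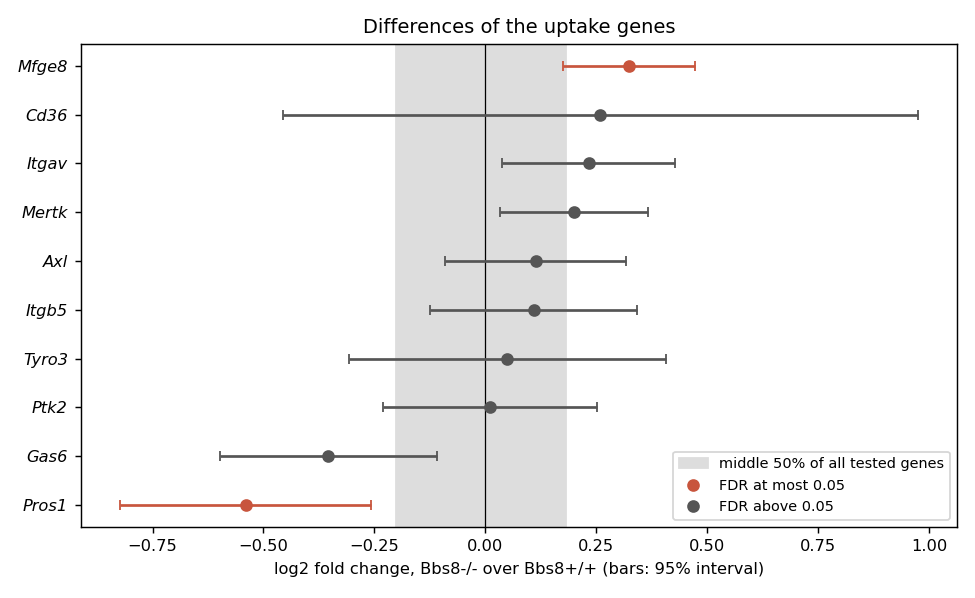
Log2 fold change of each uptake gene, Bbs8-/- over Bbs8+/+ (x axis), with its 95% interval from the edgeR fit. The grey band holds the middle 50% of all 13813 tested genes, from -0.20 to 0.18. Mfge8 and Pros1, in red, passed FDR 0.05, and the intervals of Gas6, Itgav and Mertk also left out 0.

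In the integrin module, Itgav (ENSMUSG00000027087, chromosome 2, 83724397 to 83806916, plus strand), which encodes the αv chain shared by several integrins, was 109, 94.1, 101 and 107 CPM in Bbs8+/+ and 112, 130.2, 117 and 123 CPM in Bbs8-/-. All Bbs8-/- libraries were above all Bbs8+/+ libraries by a narrow margin. The log2 fold change was 0.23 with a 95% interval of 0.04 to 0.43, and it did not pass the threshold over all genes (edgeR FDR 0.262). Itgb5, which encodes the β5 chain that pairs with αv at the apical RPE surface, was 80.7, 73.2, 71.1 and 69.2 CPM in Bbs8+/+ and 82.6, 73.2, 88.6 and 72.5 CPM in Bbs8-/-. These ranges overlapped, and the log2 fold change of 0.11 had a 95% interval of -0.12 to 0.34 (edgeR FDR 0.778). There were 0.647 to 0.778 Itgb5 tags per Itgav tag in Bbs8+/+ and 0.562 to 0.757 in Bbs8-/-.

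Ptk2, the focal adhesion kinase gene, was the gene with the smallest difference of the 10. Its level was 64.3, 80.7, 71.1 and 64.7 CPM in Bbs8+/+ and 67.4, 74.8, 71.7 and 68.8 CPM in Bbs8-/-, and the Bbs8-/- libraries lay within the Bbs8+/+ range. The log2 fold change was 0.01 with a 95% interval of -0.23 to 0.25 (edgeR FDR 0.985), and its sign changed without Bbs8+/+ replicate 1 or 4 or Bbs8-/- replicate 2. Cd36, a scavenger receptor for oxidised lipids and lipoproteins that influences the rate of outer segment uptake, had 11 to 22 counts per library. Its level was 3.85 to 9.06 CPM in Bbs8+/+ and 5.51 to 10.3 CPM in Bbs8-/-. The 95% interval of its log2 fold change of 0.26 ran from -0.46 to 0.97 (edgeR FDR 0.840), so the direction of a difference could not be resolved from so few counts.

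The uptake genes are expressed by more cell types than the RPE, and lists of marker genes of the cells in an eyecup were summed in the same libraries. In bulk RNA, fewer cells of a type and less RNA per cell cannot be told apart. The RPE list of 10 genes summed to 17237 to 18259 CPM in Bbs8+/+ and 18470 to 18797 CPM in Bbs8-/-, without overlap. Without Ttr it was 6713 to 6989 CPM and 6805 to 7041 CPM, with overlap. Of the 10 genes, 0 passed FDR 0.05. An unadjusted p under 0.05 was found for 5 of 10, beside 13.0% of all tested genes. Of these, 4 were higher (Rlbp1, Ttr, Stra6 and Slc16a8) and 1 was lower (Rpe65). The fibroblast and pericyte list was 35244 to 37057 CPM in Bbs8+/+ and 27799 to 28958 CPM in Bbs8-/-, and 4 of its 10 genes were lower (Col1a1, Col1a2, Col3a1 and Rgs5) and 0 were higher. Of the 6 that did not pass, Pdgfra, Pdgfrb and Cspg4 had log2 fold changes of -0.25, -0.35 and -0.33, and Dcn, Lum and Acta2 had 0.09, 0.12 and 0.10, so 7 of 10 point estimates were below 0. Col1a1 and Col1a2, the chains of collagen I, made up 74.2% of the list's sum in Bbs8+/+ and 67.3% in Bbs8-/-, and without them the list was 9034 to 9498 CPM and 9074 to 9435 CPM, with overlap. The macrophage and microglia list was 514 to 565 CPM in Bbs8+/+ and 620 to 664 CPM in Bbs8-/-, with 11 of 12 point estimates above 0. Csf1r, the receptor for the macrophage growth factor, and Lyz2, lysozyme, passed the threshold upward (log2 fold changes of 0.28 and 0.54, edgeR FDR 0.0104 and 0.0229). The endothelium list was 1039 to 1096 CPM and 1028 to 1135 CPM, with 5 point estimates above 0 and 5 below. Egfl7 of this list passed upward (log2 fold change 0.36, edgeR FDR 0.00812), and Flt1, Tie1 and Cdh5 had an unadjusted p under 0.05 with estimates below 0. No marker of these 4 lists was at 0 counts in all libraries, whereas the adipocyte markers Adipoq, Lep and Cidec were. The lens list was 193 to 229 CPM in Bbs8+/+ and 518 to 549 CPM in Bbs8-/-. Of its 10 genes, 7 passed upward (Cryaa, Cryba1, Cryga, Crygb, Crygc, Crygd and Crygs). Their log2 fold changes ran from 2.45 for Crygs to 5.06 for Cryga. Cryab, the most abundant, did not pass (-0.15), nor did Crybb2 (1.67) and Mip (0.30). The melanocyte list was 13999 to 14684 CPM and 11609 to 12179 CPM, and 5 of its 8 genes were lower at an edgeR FDR of 0.05 (Dct, Pmel, Tyrp1, Mlana and Ednrb, with log2 fold changes of -0.25, -0.25, -0.56, -0.47 and -0.44). The other 3, Tyr, Kit and Sox10, had 0.02, -0.03 and -0.05. Most of the sum is Dct, a pigment gene that the RPE also expresses. The list of Schwann cells and oligodendrocytes was 187 to 209.1 CPM and 107 to 131 CPM, and that of skeletal muscle 1450.0 to 1598 CPM and 1606 to 1782 CPM. The part of these tissues in the levels of the uptake genes was not tested.

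Pros1 and Gas6 were also set against the marker lists in the same library. Per 1000 tags of the whole fibroblast and pericyte list there were 1.51 to 1.87 Pros1 tags in Bbs8+/+ and 1.26 to 1.69 in Bbs8-/-, with overlap, and the log2 ratio of the means was -0.19. Without Col1a1 and Col1a2 in that list the values were 5.79 to 7.30 and 3.80 to 5.10, without overlap, and the log2 ratio was -0.54. The genotypes thus overlapped for the whole list and were apart once collagen I was left out.

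Per 1000 tags of the RPE list, Pros1 was 3.02 to 3.61 in Bbs8+/+ and 1.90 to 2.56 in Bbs8-/-, without overlap. Ttr made up 61.5% and 62.7% of that list's sum, and without it the log2 ratio was -0.56 in place of -0.60, again without overlap. Pros1 was also lower without overlap per tag of the macrophage and endothelium lists, with log2 ratios of -0.77 and -0.56. For Gas6 the log2 ratio was 0.01 to the whole fibroblast and pericyte list, -0.34 without collagen I and -0.41 to the RPE list, with overlap in each. The part of other cell types in these levels was not tested.

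The same was done for Mfge8. Per 1000 tags of the macrophage and microglia list, in which Csf1r is the most abundant gene, there were 347 to 408 Mfge8 tags in Bbs8+/+ and 370 to 443 in Bbs8-/-, with overlap, and the log2 ratio of the means was 0.09. Per 1000 tags of the RPE list Mfge8 was 10.6 to 12.9 and 12.3 to 15.8, also with overlap, and the log2 ratio was 0.26, or 0.31 without Ttr. It was 0.32 to the endothelium list, with overlap. To the whole fibroblast and pericyte list it was 0.68, without overlap, and 0.33 without collagen I, with overlap.

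Mertk per 1000 tags of the RPE list was 8.47 to 9.81 in Bbs8+/+ and 8.62 to 11.0 in Bbs8-/-, with overlap. The log2 ratio was 0.14, or 0.19 without Ttr. For Itgav the values were 5.19 to 6.21 and 6.05 to 6.93, and the log2 ratio was 0.17 with overlap, or 0.22 without Ttr and without overlap. Per tag of the macrophage and microglia list, the log2 ratio was -0.03 for Mertk and 7.9e-05 for Itgav, with overlap in both. To the endothelium list it was 0.19 for Mertk, with overlap, and 0.22 for Itgav, without overlap. To the whole fibroblast and pericyte list it was 0.55 and 0.58, without overlap in either. Without collagen I it was 0.21 for Mertk, with overlap, and 0.24 for Itgav, without overlap. The part of macrophages or of other cell types in the levels of Mfge8, Mertk and Itgav was not tested.

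**Figure D3:**
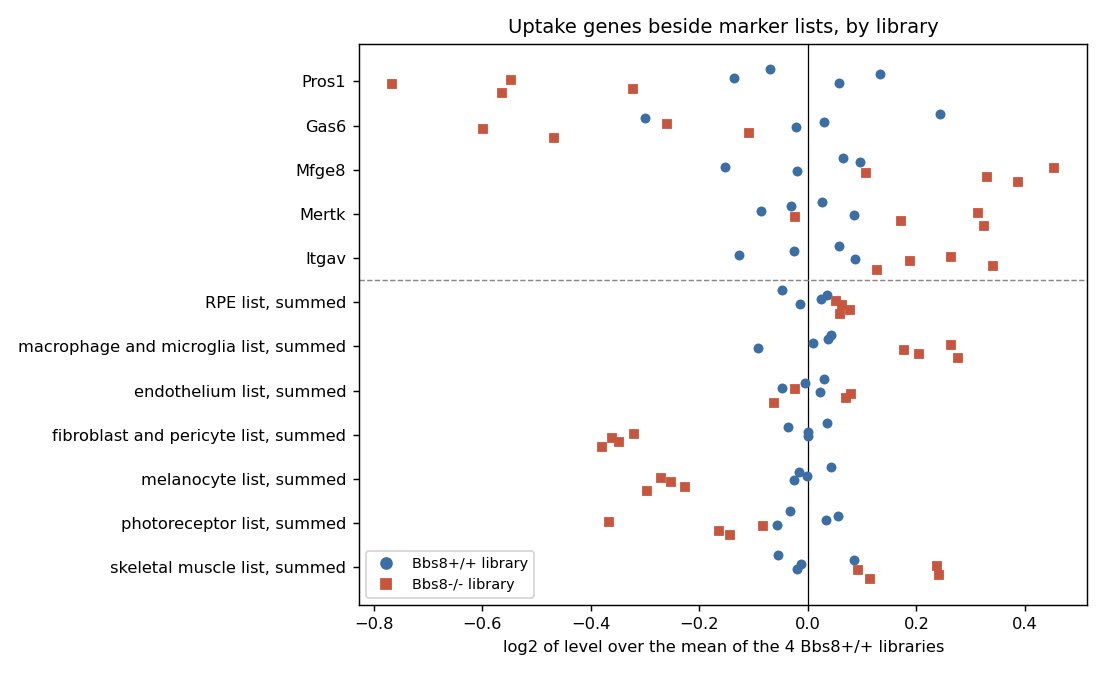
Log2 of the level in each library over the mean of the 4 Bbs8+/+ libraries (x axis) for 5 uptake genes (above the dashed line) and for the summed marker lists of 7 cell types (below it), with Bbs8+/+ as blue circles and Bbs8-/- as red squares. The fibroblast and pericyte list, mostly collagen I, and the melanocyte and photoreceptor lists lie to the left in every Bbs8-/- library, as Pros1 does. The macrophage and microglia, RPE and skeletal muscle lists lie to the right, as Mfge8 does. The endothelium list lies on both sides.

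The rest of the uptake pathway was read from 3 lists of genes. Of 25 other uptake receptors and bridges, 22 were tested and 0 passed FDR 0.05 in edgeR, with 1 gene of each direction, Lgals3 and Vtn, at an unadjusted p under 0.05. DESeq2 also called 0 of them. The list had a median log2 fold change of -0.11. Its most abundant members were Calr, a chaperone that also marks dying cells for uptake, Itgb1, the β1 integrin chain, and Cd81, a tetraspanin that associates with αvβ5 in the RPE. Their log2 fold changes were -0.02, -0.11 and 0.01. Lgals3, or galectin-3, which has been described as a further Mertk ligand, was 6.47, 8.66, 5.15 and 5.59 CPM in Bbs8+/+ and 9.72, 9.94, 14.7 and 12.2 CPM in Bbs8-/-. Its groups did not overlap, but the log2 fold change of 0.85 did not pass the threshold (edgeR FDR 0.198). Vtn, or vitronectin, a matrix ligand of αvβ5, had a log2 fold change of -0.51 (edgeR FDR 0.377), and Itgb3, the other β chain that binds Mfge8 with αv, had -0.31 (edgeR FDR 0.716). The phosphatidylserine receptor genes Timd4 and Havcr1 had 0 counts in all 8 libraries, which allows a level of up to 1.04 to 1.83 CPM.

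All 27 genes of engulfment signalling were tested, and 0 passed FDR 0.05 in edgeR or DESeq2. The median log2 fold change was -0.07. The small GTPases Cdc42 and Rhoa and the integrin adaptor Tln1 were the most abundant, with log2 fold changes of -0.12, -0.07 and -0.13. An unadjusted p under 0.05 was found for 3 of the 27 genes, a share near the 13.0% of all tested genes. All 3 had point estimates below 0, namely Pik3r1, the regulatory subunit of PI3 kinase (log2 fold change -0.23, edgeR FDR 0.0910), Akt1, a kinase downstream of it (-0.27, edgeR FDR 0.184), and Arf6, a GTPase of membrane recycling at the phagocytic cup (-0.47, edgeR FDR 0.163). Akt1 passed when Bbs8+/+ replicate 3 was left out (-0.37, edgeR FDR 0.0368). Myo7a, the motor that moves phagosomes and melanosomes in the RPE, and Rac1, the GTPase that drives cup closure, had log2 fold changes of 0.02 and -0.11.

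Of the 22 genes of phagosome maturation, 1 passed the threshold. Ctsd, which encodes cathepsin D, a lysosomal protease that digests outer segment proteins, was 1629.5, 1712, 2024 and 1874 CPM in Bbs8+/+ and 2366, 2099.7, 2230.5 and 2375 CPM in Bbs8-/-. The groups did not overlap, and its log2 fold change was 0.33 (edgeR FDR 1.21e-08). The list had a median of 0.02. Lamp1 and Rab14, the next most abundant, had log2 fold changes of -0.17 (edgeR FDR 0.202) and 0.03. An unadjusted p under 0.05 was found for 3 of the 22 genes upward (Ctsd, Uvrag and Map1lc3b) and 1 downward (Lamp1). The shares of all tested genes were 6.38% and 6.60%. Uvrag, which acts in phagosome and endosome fusion, and Map1lc3b, the LC3 protein that marks phagosomes, had values of 0.47 (edgeR FDR 0.215) and 0.19 (edgeR FDR 0.332).

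**Figure D4:**
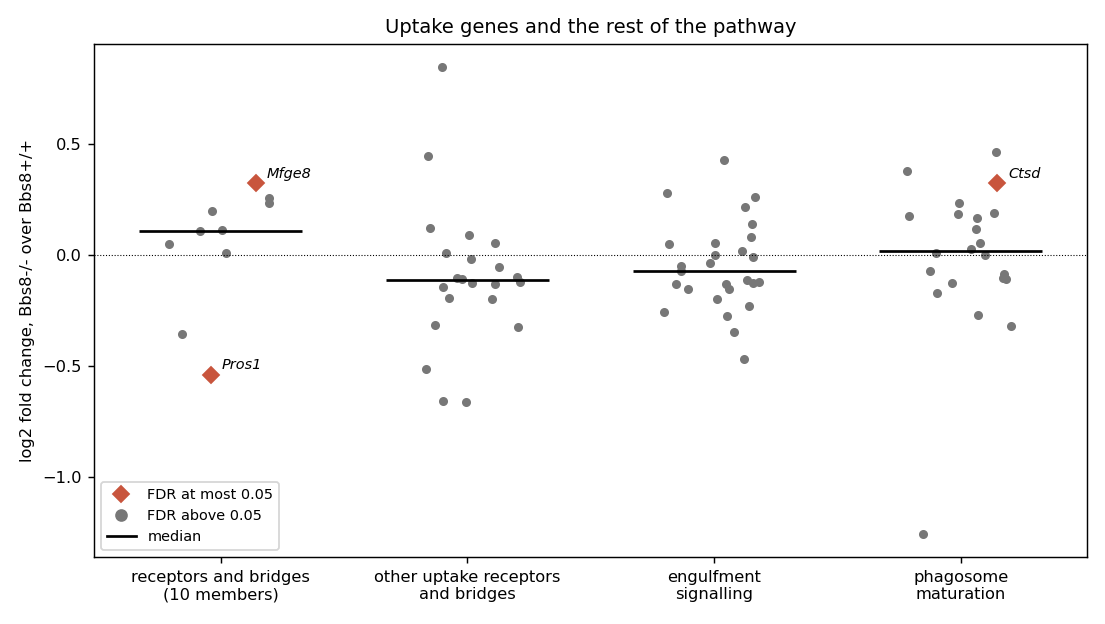
Log2 fold change, Bbs8-/- over Bbs8+/+ (y axis), of each tested gene of the 10 receptors and bridges and of the 3 pathway lists, with the median of each as a black line. Red diamonds mark genes past FDR 0.05. Mfge8 and Pros1 lie at opposite ends of the first column, and Ctsd is the only red point in the other 3.

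The photoreceptor transcripts left in the eyecups were compared because outer segments are the cargo of this pathway. The list of 10 genes summed to 636 to 687 CPM in Bbs8+/+ and 513 to 624 CPM in Bbs8-/-. Gnat1, rod transducin, was 36.2 to 61.3 CPM in Bbs8+/+ and 19.8 to 31.0 CPM in Bbs8-/-, and it fell by 0.86 on the log2 scale (edgeR FDR 0.000502). The retina had been removed, and how much of it remained with each eyecup was not measured.

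**Figure D5:**
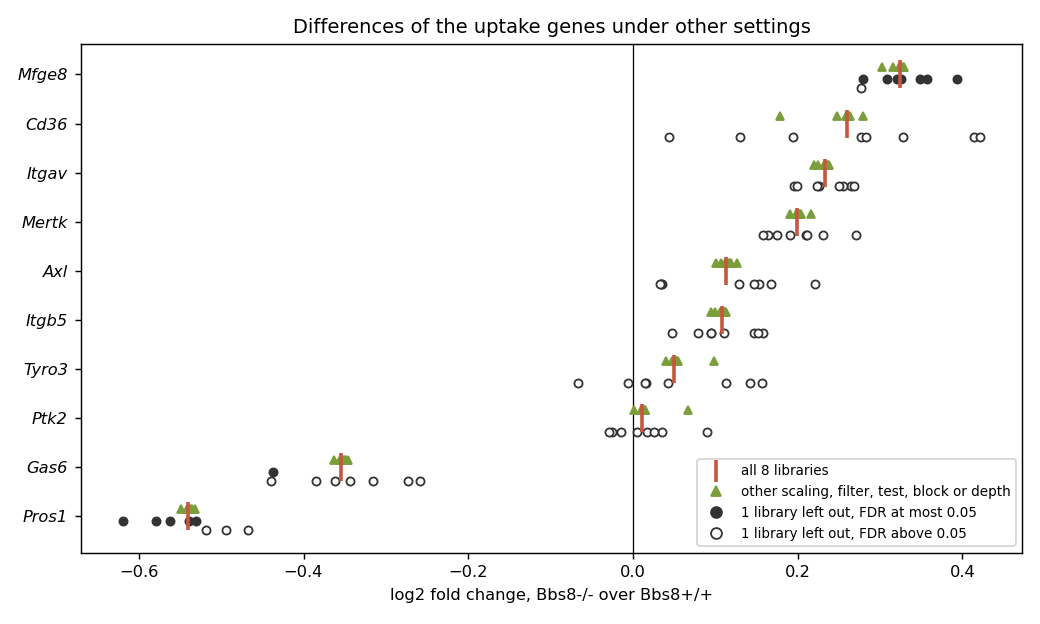
Log2 fold change of each uptake gene (x axis) in the fit of all 8 libraries (red bar), under 8 other settings of scaling, filter, test, block or depth (green triangles), and with 1 library left out (circles, filled where the FDR was at most 0.05). Mfge8 stays between 0.28 and 0.39 and Pros1 between -0.62 and -0.47 when 1 library is left out, while Tyro3 and Ptk2 lie on both sides of 0.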

How the data were processed

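Gene expression was measured in 8 RPE eyecup libraries, 4 of each genotype, each taken by the study's methods as an individual animal, although transcripts of both sexes were found in every library. The authors trimmed reads with BBDuk, aligned them with STAR to mm10 with an Ensembl gene model and counted uniquely aligned reads per gene with htseq-count. The deposited values are these raw counts. The 5 summary lines of each file were left out. The strand setting was not given in the sources used here, so reads of a gene and of an antisense partner may not be separated. No molecular identifiers were named, and floors cover counting error only.

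Symbols and positions came from GENCODE M21 on the same assembly, in which 31011 of 31053 identifiers had an entry. A gene entered the test when 4 libraries or more reached 1 CPM. The fit was edgeR 4.0.16 in R 4.3.3 (quasi-likelihood, two-sided, TMM scaling, a single term for genotype), and p-values were adjusted by Benjamini-Hochberg over the 13813 genes that entered, with a threshold of FDR 0.05. CPM values use the TMM library sizes. The standard error is the size of the log2 fold change divided by the square root of F, and the 95% interval uses the t distribution with the degrees of freedom of the fit. Sums, shares and ratios were not tested. The procedure was tested on simulated counts. Alternatives were RLE size factors, total counts, filterByExpr, no filter, DESeq2 1.42.0, a replicate block, thinned counts of equal depth, the exclusion of Gm42418 and mitochondrial genes, and leaving out each library. Ratios to marker lists, whole and without Ttr or collagen I, were added after seeing the data.

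All 10 uptake genes are named. From each pathway list, the 3 most abundant genes and those with FDR at most 0.05 or an unadjusted p under 0.05 were named, and Itgb3, Timd4, Havcr1, Myo7a and Rac1 were added after their values were seen. C1qa stands on both the list of other uptake receptors and bridges and the macrophage list. The uptake genes and all lists were chosen with earlier results of these data known. Promoter sequences were matched by symbol to RefSeq, with an entry for 9 of the 10 genes.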

Additional observations from a re-analysis of the deposited data

Results flagged for a closer look

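Of 64 groups of 4 libraries examined for a single library apart (the uptake genes, Ttc8, their sums and ratios, the marker lists and the reads outside genes), 2 had one, where chance gives about 1 in 20. The summed level of Mertk, Axl and Tyro3 was 385.7 CPM in Bbs8-/- replicate 1 against 323.2 to 323.8 CPM in the other Bbs8-/- libraries. This library also had the smallest total count and the highest level of Ttc8 in Bbs8-/-. Tyro3 took 12.34% of the tags of the 3 receptors in Bbs8+/+ replicate 1 against 9.128% to 9.598% in the other Bbs8+/+ libraries. Outside the gene counts, the share of uniquely aligned reads that lay in no annotated gene was 44.27% in Bbs8-/- on average and 42.64% in Bbs8+/+, and the genotypes did not overlap.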

How the results depend on the processing

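Under the 8 other settings of scaling, filter, test, block and depth, Mfge8 and Pros1 were called in each and the other 8 uptake genes in none. Log2 fold changes then ranged from 0.30 to 0.33 for Mfge8 and from -0.55 to -0.53 for Pros1. With 1 library left out, 1 to 2 uptake genes were called, 0 to 1 higher and 0 to 1 lower, and 1 to 2 pathway genes, always with Ctsd. Gas6, alone of the other 8, passed in one of these fits. The FDR of Mfge8 ran from 0.000635 to 0.0501 and that of Pros1 from 0.0116 to 0.114. Tyro3 ranged from -0.067 to 0.16 and Ptk2 from -0.029 to 0.090, with FDR of at least 0.814 and 0.868. Axl ranged from 0.033 to 0.22, Itgb5 from 0.047 to 0.16 and Cd36 from 0.044 to 0.42, without a change of sign. The cause was not tested. Over all genes, 114 to 172 were higher and 105 to 150 lower with 1 library left out.

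The replicate block gave 134 genes higher and 129 lower, beside 152 and 157 without it, and changed no call among the uptake genes (Pros1 -0.54, Mfge8 0.32). Deviations of same-numbered libraries had correlations of -0.0558 to 0.0191 over 6628 genes, so no pairing by number was seen over these genes together. A shared litter or preparation that touched few genes would not show in such a correlation. The median over all tested genes stayed between -0.0129 and 0.0066 in these settings. Depth limits Cd36 and Tyro3 most, by their counts.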

Other observations

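Genes alike in pattern to Mertk and to Itgb5 were looked up by the Pearson correlation of log2 CPM over the 8 libraries among 6627 genes with a mean of at least 20 CPM. The highest for Mertk were Dpm3 (0.966), Mcm3ap (0.956) and Tmem63a (0.952). The highest for Itgb5 were Plekhb2 (0.960), Dhx30 (0.938) and Gpm6a (0.902). These are the top values of many over few libraries that share depth and genotype, and they are given as a description only.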
